A study of Mus musculus with 14 samples.

Results

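The genes described here are the expressed Zfp zinc finger genes of Y1 cells, a mouse adrenocortical tumour line. They were chosen by symbol, Zfp followed by 3 digits, and by a mean raw level over the 6 RNA libraries of at least 5 CPM, the count scaled to a common total of gene counts per library. The rule took 157 of 287 such symbols, out of 24465 genes counted, and all 157 were tested. The rule used the mean over both groups and not the difference between them. In 14 members, however, only 1 group had a raw mean of at least 5 CPM. Cells of both groups were starved of serum for 48 h. They then received 10% fetal bovine serum together with FGF-2 (fibroblast growth factor 2) at 10 ng/ml, or 10% serum alone, and were harvested 5 h later. There are 3 libraries of polyadenylated RNA for each group. Chromatin was immunoprecipitated for H3K27ac, the acetylation of histone H3 at lysine 27 that marks promoters and enhancers in use, in 2 libraries for each group. All libraries come from 1 cell line, and nothing in the labels says that they were separate cultures, so p-values measure only the spread between these libraries.

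C2H2 zinc finger proteins fold short peptide loops around a zinc ion, and arrays of these loops read DNA or RNA sequence. Many genes of the family sit in clusters that arose by duplication. A large group joins the fingers to a KRAB domain, which recruits the corepressor Trim28 and, through it, the H3K9 methyltransferase Setdb1, heterochromatin protein 1 and DNA methylation. Their best known targets are retroelements and imprinted loci. Other members have no KRAB domain and act in ribosome assembly, splicing, the spindle or development. The symbol alone does not say which of these a gene is, so the 157 genes share a name and a fold, not a function.

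With FGF-2, 31 of the 157 genes rose and 23 fell, and 103 did not pass the test (edgeR's quasi-likelihood test, Benjamini-Hochberg adjusted over all 10374 tested genes at 0.05). The called share was 34.4%, against 46.3% of all tested genes and 48.8% of the 8783 tested genes at the same CPM minimum. Among members 19.7% were higher and 14.6% lower, against 22.1% higher and 24.2% lower over all tested genes. The 3 libraries of each group did not overlap in 80 members, or 51.0%, of which 47 lay higher with FGF-2 and 33 lower on the TMM scale, while groups did not overlap in 57.5% of all tested genes. The difference between members and other genes was described and not tested. Direction depends on scaling: with library totals alone 9 members were higher and 62 lower, and with upper-quartile factors 20 were higher and 34 lower. Over all tested genes those scalings put the median log2 value at -0.36 and -0.16, against -0.023 with the TMM factors used throughout. The member median lay above that of all genes by 0.073 and 0.072. With 1 library left out this gap ran from 0.037 (without serum library 1) to 0.094 (without FGF-2 library 3). With the member minimum at 1 CPM the member median was -0.037, below the -0.023 of all tested genes. Those genes were not held to the member minimum. Of the called members, 9 higher and 16 lower were called in every alternative fit, which covered 6 left-out libraries, 3 scalings, no low-count filter, DESeq2, limma-voom and a replicate block. In the fits with 1 library left out alone, 18 higher and 16 lower were kept. Because 2 of the scalings lower the values of all genes, the 9 and 16 do not show which direction was more secure. The share of all called genes kept in every fit was not counted.

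The changes were small. The median log2 fold change (FGF-2 over serum alone) was 0.049 for members and -0.023 for all tested genes. The median size of the change, whatever its sign, was 0.27 for members and 0.40 for all tested genes. The tested genes in this paragraph were not held to the members' CPM minimum, which 8783 of 10374 met. Sizes over those 8783 genes were not counted. The middle 50% of members, by quartiles, lay between -0.26 and 0.29 on the log2 scale, against -0.47 and 0.35 for all tested genes. Only 9 members were called with a change of at least 1 on the log2 scale, 3 higher and 6 lower, among them Zfp667, Zfp395 and Zfp101, whose mean met the CPM minimum in 1 group alone. That is 5.73% of members, against 15.9% of tested genes (1647). Among the 103 members that did not pass, 99 had a log2 fold change within 0.5 of 0. The median coefficient of variation over libraries was 10.5% with FGF-2 and 11.0% in serum alone for members. Over all tested genes it was 12.4% with FGF-2 and 11.3% in serum alone. The summed normalised level of the 157 genes was 5107, 5083 and 5009 CPM in the FGF-2 libraries and 4541, 4673 and 4812 CPM in the serum libraries. On the TMM scale these sums did not overlap between groups and averaged 5066 ± 51.2 CPM with FGF-2 and 4675 ± 136 CPM in serum alone (SD, n = 3 each). The order turned round with raw CPM, at 4647, 4537 and 4320 with FGF-2 and 5219, 5381 and 5154 in serum alone, so no direction of the summed level is drawn from them.

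**Figure D1:**
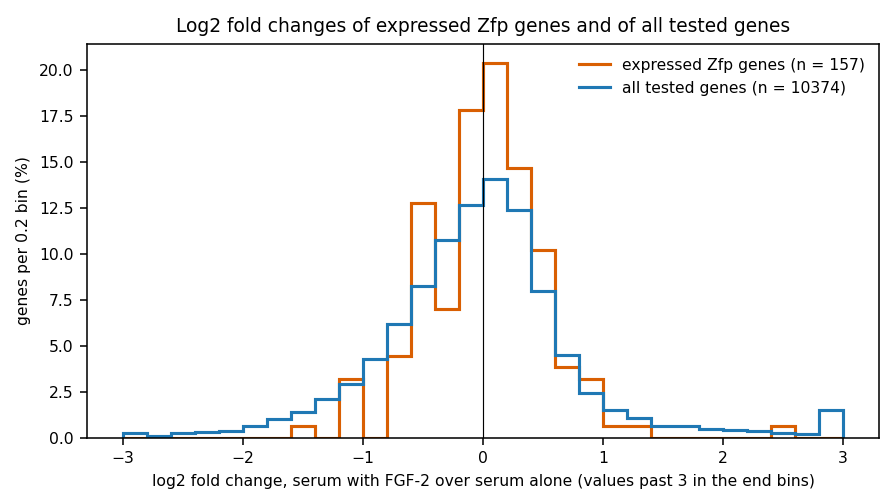
Share of genes (y axis, %) in each 0.2-wide bin of log2 fold change, serum with FGF-2 over serum alone (x axis), for the 157 expressed Zfp genes (orange) and all 10374 tested genes (blue). The Zfp distribution is narrower, with a median of 0.049 against -0.023, but the tested genes were not held to the members' CPM minimum. Under library totals alone the member median was -0.29 and that of all genes -0.36.

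The gene libraries held 11272041, 12696426 and 6403095 counts with FGF-2 and 9101089, 8159993 and 5625004 in serum alone. The third library of each group was the shallowest. The third serum library lay nearest the FGF-2 libraries on the first principal component, and was the serum library nearest to the FGF-2 values in 26 of the 54 called members and in 57.1% of all called genes. Of the cell type markers, the adrenocortical list summed to 2261 to 3744 CPM with FGF-2 and 654 to 896 CPM in serum alone on the TMM scale. With FGF-2 the sum came mostly from Star, the 1 marker of the list called higher (log2 fold change 3.80, edgeR adjusted p = 0.00129). Cyp11a1 was called lower (-0.76, edgeR adjusted p = 0.0454). Nr5a1 (-0.059), Scarb1 (0.055) and Fdx1 (-0.091) did not pass, and Hsd3b1 and Mc2r were near 0. The fibroblast and capsule list summed to 2018 to 2895 CPM with FGF-2 and 2768 to 3488 CPM in serum alone on that scale, ranges that overlapped (before TMM scaling 1754 to 2586 CPM with FGF-2 and 3191 to 3961 CPM in serum alone, with no overlap), from Col1a1 and Col3a1, with Col1a2 and Dcn at 0 in every library. Col3a1 was called lower (-0.46, edgeR adjusted p = 0.0281) and Col1a1 did not pass (-0.48, edgeR adjusted p = 0.0538). Medulla genes summed to at most 2.71 CPM with FGF-2 and 7.01 CPM in serum alone, with Th and Dbh at 0. Ddc, the 1 tested gene of that list, was called lower (-1.64, edgeR adjusted p = 0.000901). Endothelium and blood genes summed to at most 11.8 CPM with FGF-2 and 14.6 CPM in serum alone, with Hba-a1 at 0. Of these Pecam1 was called lower (-0.93, edgeR adjusted p = 0.0296) and Cd68 did not pass (0.076, edgeR adjusted p = 0.849). The part of these marker levels in the Zfp changes was not tested, and in these bulk libraries fewer cells of a kind and less RNA per cell cannot be told apart.

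A pair of paralogs moved in opposite directions. Zfp703 (chr8:26977336-26981462) and Zfp503 (chr14:21983959-21989601, both GRCm38.p6) encode the NET family of nuclear corepressors, which hold a single zinc finger and act in development. Zfp703 had 81.6, 126 and 156 CPM in the FGF-2 libraries and 18.4, 17.9 and 25.4 CPM in the serum libraries. Every FGF-2 library was above every serum library, and the first FGF-2 library was the lowest of its group. The log2 fold change was 2.57 ± 0.26 (SE, edgeR adjusted p = 0.000171), or 5.94-fold, the largest increase of the set. Zfp503 had 52.0, 72.7 and 42.0 CPM with FGF-2 and 126, 127 and 130 CPM in serum alone. The serum libraries lay close together and the FGF-2 libraries were spread, with no overlap. Its log2 fold change was -1.19 ± 0.17 (edgeR adjusted p = 0.000606), and it was 2.28-fold lower. Both calls held in every alternative fit, scalings included.

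Zfp362 (chr4:128773085-128806112), a relative of the worm developmental timing factor LIN-29, was the second largest increase. It had 108, 102 and 123 CPM with FGF-2 and 47.7, 43.8 and 47.0 CPM in serum alone. Its groups were far apart beside their spread, at 1.26 ± 0.11 on the log2 scale (edgeR adjusted p = 3.54e-05). Zfp667 had 8.68, 5.56 and 8.33 CPM with FGF-2 and 3.73, 3.62 and 3.15 CPM in serum alone, a log2 fold change of 1.08 ± 0.24 (edgeR adjusted p = 0.00508). Its serum mean was under 5 CPM, so it entered the set through its FGF-2 level. Zfp655, whose protein binds the exchange factor Vav, had 87.4, 77.3 and 108 CPM with FGF-2 and 46.7, 48.4 and 58.9 CPM in serum alone. No FGF-2 library came near the serum values, and the log2 fold change was 0.82 ± 0.15 (edgeR adjusted p = 0.00155). Zfp800 had 49.5, 53.9 and 74.6 CPM with FGF-2 and 35.1, 27.5 and 37.8 CPM in serum alone, at 0.82 ± 0.18 on the log2 scale (edgeR adjusted p = 0.00447).

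Zfp330, a nucleolar protein, had 54.2, 48.5 and 68.3 CPM with FGF-2 and 31.8, 30.9 and 37.0 CPM in serum alone. The third library was the highest of both groups. The log2 fold change was 0.77 ± 0.14 (edgeR adjusted p = 0.00193). Zfp597 had 17.1, 17.3 and 17.2 CPM with FGF-2 and 11.2, 9.47 and 9.63 CPM in serum alone, at 0.76 ± 0.14 on the log2 scale (edgeR adjusted p = 0.00196). Zfp954 had 10.7, 10.5 and 14.7 CPM with FGF-2 and 6.50, 7.88 and 5.48 CPM in serum alone, at 0.82 ± 0.21 (edgeR adjusted p = 0.00909). The value of Zfp954 from library totals alone was 0.47, which did not pass (adjusted p = 0.0799).

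Among the 12 largest increases, the last pair rested on single libraries. Zfp868 had 11.2, 14.3 and 19.6 CPM with FGF-2 and 7.65, 9.47 and 9.29 CPM in serum alone. Its log2 fold change was 0.75 ± 0.22 (edgeR adjusted p = 0.0172), and the call was lost without serum library 1. Zfp341, whose human counterpart activates STAT3 transcription, had 8.97, 10.9 and 8.15 CPM with FGF-2 and 4.78, 6.60 and 6.14 CPM in serum alone. At 0.69 ± 0.20 (edgeR adjusted p = 0.0184) it was called, but not without FGF-2 library 2 or serum library 1. Of the 31 increases, 18 were called in all 6 fits that left out 1 library. The 9 called higher in every alternative fit were Zfp703, Zfp362, Zfp667, Zfp451, Zfp655, Zfp800, Zfp593, Zfp330 and Zfp597. Among them Zfp667 met the CPM minimum through its FGF-2 level alone.

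The largest decrease was that of Zfp395, whose human counterpart was described as a binder of the huntingtin gene promoter. It had 4.68, 6.18 and 2.17 CPM with FGF-2 and 14.9, 16.2 and 7.97 CPM in serum alone. The third library was the lowest of both groups, and the groups did not overlap. The log2 fold change was -1.53 ± 0.36 (edgeR adjusted p = 0.0081), 2.88-fold lower, and its FGF-2 mean was under the 5 CPM minimum. Zfp651 (chr9:121759319-121771742) had 57.5, 56.2 and 48.5 CPM with FGF-2 and 113, 112 and 118 CPM in serum alone. It had the smallest p of the decreases, at -1.07 ± 0.11 on the log2 scale (edgeR adjusted p = 6.26e-05). Zfp324 had 8.48, 7.32 and 3.44 CPM with FGF-2 and 14.9, 16.1 and 11.8 CPM in serum alone, at -1.10 ± 0.27 (edgeR adjusted p = 0.00819). Zfp579 had 11.2, 14.4 and 7.60 CPM with FGF-2 and 19.0, 26.9 and 22.4 CPM in serum alone, at -1.01 ± 0.22 (edgeR adjusted p = 0.00485). In both genes the third FGF-2 library was the lowest value.

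Zfp101 had 5.26, 5.65 and 3.08 CPM with FGF-2 and 9.27, 9.79 and 9.96 CPM in serum alone, and fell by 1.00 on the log2 scale with an SE of 0.22 (edgeR adjusted p = 0.00504). Its raw FGF-2 mean was under the minimum, at 4.16 CPM. Zfp958 had 10.0, 7.59 and 8.69 CPM with FGF-2 and 14.8, 14.3 and 16.9 CPM in serum alone, at -0.80 ± 0.17 (edgeR adjusted p = 0.00349). Zfp316 had 25.7, 23.2 and 19.4 CPM with FGF-2 and 35.3, 40.8 and 39.5 CPM in serum alone, at -0.74 ± 0.13 (edgeR adjusted p = 0.00139). All of these groups were clear of each other. Zfp961 had 10.1, 9.44 and 7.24 CPM with FGF-2 and 14.4, 15.1 and 14.3 CPM in serum alone, and Zfp444 had 12.7, 11.1 and 11.6 CPM with FGF-2 and 19.6, 18.3 and 15.8 CPM in serum alone. Their log2 fold changes were -0.69 ± 0.16 and -0.61 ± 0.15 (edgeR adjusted p = 0.00719 and 0.00751). The decreases of Zfp229 (-0.65 ± 0.23, edgeR adjusted p = 0.0402) and Zfp383 (-0.61 ± 0.20, edgeR adjusted p = 0.0294) were the least secure of the 12 largest. Zfp229 was not called without FGF-2 library 1 or 3 or without serum library 1 or 2, and Zfp383 was called in only 1 of the 6 fits, that without serum library 3. Of the 23 decreases, 16 were called in all 6 fits, and these 16 were called in every alternative fit.

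**Figure D2:**
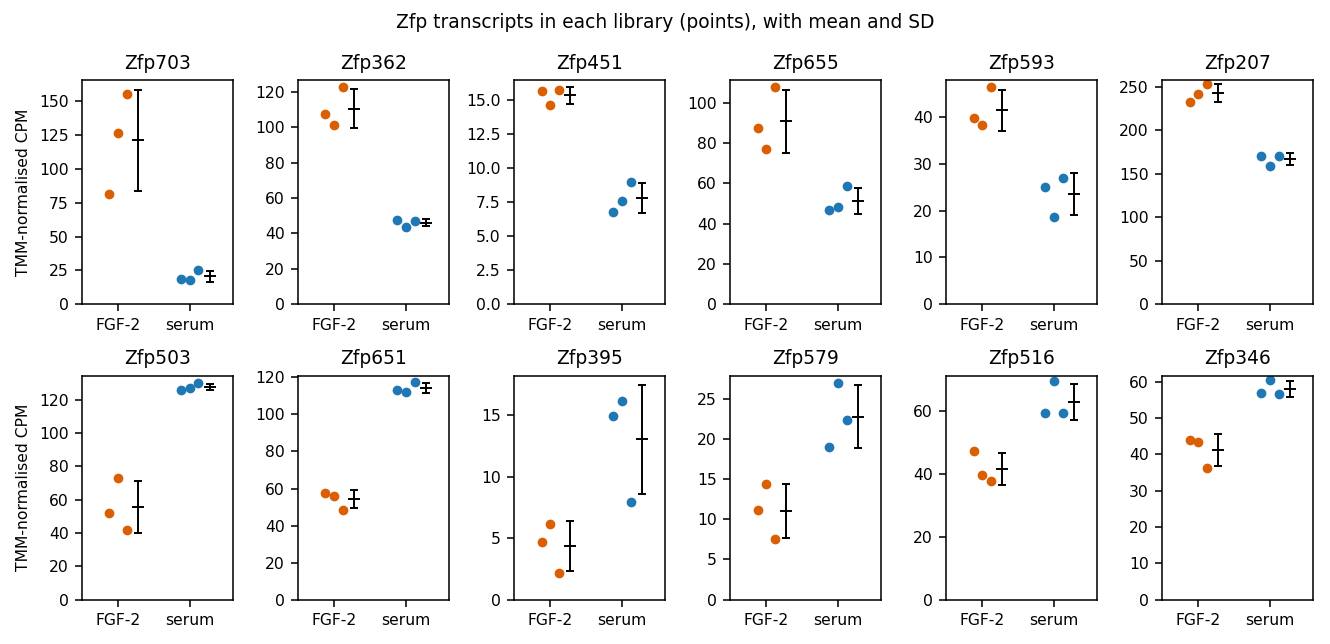
TMM-normalised CPM (y axis, from 0) of 12 Zfp genes in each FGF-2 library (orange, left) and serum library (blue, right), with the mean and SD (n = 3) in black; the upper row holds genes called higher and the lower row genes called lower. Zfp703 had 81.6 to 156 CPM with FGF-2 against 17.9 to 25.4 CPM in serum alone, and Zfp503 had 42.0 to 72.7 CPM against 126 to 130 CPM; under library totals alone Zfp207 was not called (log2 0.20, adjusted p = 0.115).

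**Figure D3:**
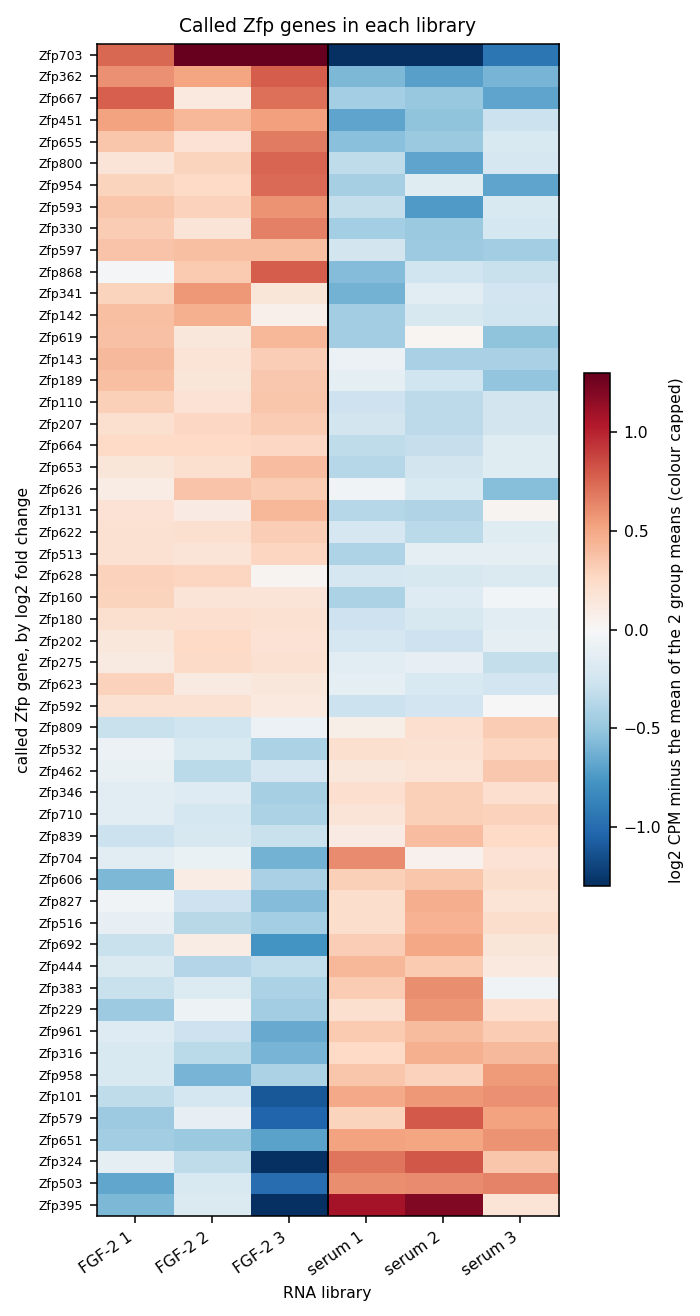
Log2 CPM of the 54 called Zfp genes (rows, from the largest log2 fold change to the smallest) in the 3 FGF-2 libraries (left) and 3 serum libraries (right), as the difference from the mean of both group means; red is above it and blue below. The top 31 genes were higher with FGF-2 and the bottom 23 lower; under library totals alone 22 of these 54 calls were lost and 39 other members were called.

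Printed next are the 250 bases before the annotated start of 5 called genes. They were taken as the members of largest increase and decrease whose window lies outside the annotated gene, with those called genes whose start region also passed in the H3K27ac table. Zfp703, Zfp362, Zfp593 and Zfp395 have no entry in the promoter table used here, and Zfp954 and Zfp330 are the seventh and ninth of the increases by size. Sequences are from the RefSeq promoter table (GRCm38.p6, the build also called mm10), run 5′ to 3′ on the gene's strand and end at the base before the start. Capitals mark letters of a GC box (GGGCGG, the SP1 motif), a CCAAT box (CCAAT), an ETS core (CCGGAAG), a YY1 core (GCCATCTT), an NRF1 motif (GCGCATGC) or a full CRE (TGACGTCA), on either strand. Zfp954 (chr7:7121477-7121726, minus strand) and Zfp330 (chr8:82774146-82774395, minus strand) rose. Zfp503 (chr14:21989602-21989851, minus strand), Zfp579 (chr7:4996102-4996351, minus strand) and Zfp958 (chr8:4612920-4613169, plus strand) fell.
Zfp954: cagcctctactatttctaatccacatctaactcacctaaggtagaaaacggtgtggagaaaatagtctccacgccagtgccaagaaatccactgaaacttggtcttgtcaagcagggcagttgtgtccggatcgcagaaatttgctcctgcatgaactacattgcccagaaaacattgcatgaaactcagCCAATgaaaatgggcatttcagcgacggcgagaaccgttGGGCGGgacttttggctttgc
Zfp330: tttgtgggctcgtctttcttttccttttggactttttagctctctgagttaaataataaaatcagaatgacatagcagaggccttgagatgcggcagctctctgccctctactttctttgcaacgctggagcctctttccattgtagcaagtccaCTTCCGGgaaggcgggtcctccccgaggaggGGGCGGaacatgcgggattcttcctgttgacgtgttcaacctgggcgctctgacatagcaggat
Zfp503: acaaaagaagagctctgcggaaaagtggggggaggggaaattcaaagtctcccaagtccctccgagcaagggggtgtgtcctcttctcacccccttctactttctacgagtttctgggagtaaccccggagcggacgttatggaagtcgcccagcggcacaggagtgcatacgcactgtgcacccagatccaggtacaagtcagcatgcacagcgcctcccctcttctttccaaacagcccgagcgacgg
Zfp579: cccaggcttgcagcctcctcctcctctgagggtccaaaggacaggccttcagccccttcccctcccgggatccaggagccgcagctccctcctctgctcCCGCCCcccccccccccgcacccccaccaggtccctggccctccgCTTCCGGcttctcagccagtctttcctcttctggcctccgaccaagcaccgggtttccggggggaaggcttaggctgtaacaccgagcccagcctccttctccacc
Zfp958: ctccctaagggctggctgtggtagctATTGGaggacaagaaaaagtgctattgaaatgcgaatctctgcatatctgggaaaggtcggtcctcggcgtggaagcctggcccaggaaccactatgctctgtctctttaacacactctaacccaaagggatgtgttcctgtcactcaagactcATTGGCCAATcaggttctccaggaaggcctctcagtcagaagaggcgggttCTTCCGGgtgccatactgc
The Zfp954 window holds 1 GC box and 1 CCAAT box, and that of Zfp330 holds 1 GC box and 1 ETS core. The Zfp579 window holds 1 GC box and 1 ETS core, with 68.8% G and C. The Zfp958 window holds 3 CCAAT boxes, 2 of them back to back on opposite strands, and 1 ETS core close to the start. The Zfp503 window holds no match to any of these motifs. A match here describes letters only.

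Over 157 windows of 300 bases (250 before and 50 after a start) in the 128 members with an entry, the median share of G and C was 58.0%, with 17 CpG, against 61.0% and 21 CpG in the 9895 windows of 7984 tested genes. A GC box lay in 49.7% of member windows and 63.6% of all windows. A CCAAT box lay in 49.7% of member windows and 38.3% of all windows. The ETS core lay in 20.4% of member windows and 18.1% of all windows. By RNA call, it lay in 10 of 32 windows of genes called higher (31.2%), 7 of 22 windows of genes called lower (31.8%) and 15 of 103 windows of genes not called (14.6%). The AP-1 site TGANTCA lay in 7 windows, 4.46% of member windows against 5.29% of all windows, and all 7 belonged to genes that were not called. The other motifs searched were the TATA box TATAAA (8.28% of member windows, 6.65% of all), the full CRE (3.82% and 3.14%), the NRF1 motif (5.1% and 5.28%) and the YY1 core (7.01% and 4.67%). Other motifs also varied by RNA call. The GC box lay in 65.6% of windows of genes called higher, 40.9% of those called lower and 46.6% of those not called. In the same order the CCAAT box lay in 50.0%, 68.2% and 45.6%, and the TATA box in 0%, 4.55% and 11.7%. Shares by call over all tested genes were not counted, and none of these shares was tested.

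Genes with roles in ribosome assembly, RNA, the SUMO pathway or the spindle formed the first list. Of 10 listed genes 9 were members, 4 rose and 1 fell (55.6% called, against 46.3% of all tested genes), with a median log2 fold change of 0.31, against -0.023 over all tested genes. Scaled to library totals alone, 2 were higher and 2 lower, with a median of -0.028 against -0.36 over all tested genes. The log2 fold changes of Zfp207 and Zfp622 were then 0.20 and 0.14 and neither passed (adjusted p = 0.115 and 0.306), while Zfp451 and Zfp593 still passed. Zfp451, whose human counterpart is a SUMO ligase, had 15.7, 14.6 and 15.8 CPM with FGF-2 and 6.79, 7.56 and 8.96 CPM in serum alone. The groups were well apart, at 1.00 ± 0.16 on the log2 scale (edgeR adjusted p = 0.000901). Zfp593 and Zfp622 belong to families known from yeast to act in late maturation of the large ribosomal subunit. Zfp593 had 39.8, 38.3 and 46.5 CPM with FGF-2 and 25.1, 18.6 and 27.1 CPM in serum alone, at 0.82 ± 0.15 (edgeR adjusted p = 0.00197). Zfp622 had 47.0, 47.4 and 51.1 CPM with FGF-2 and 35.4, 32.2 and 36.8 CPM in serum alone, at 0.48 ± 0.11 (edgeR adjusted p = 0.00494). In both, every FGF-2 library was above every serum library.

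Zfp207, also called BuGZ, binds the checkpoint protein Bub3 and the spindle. It had 233, 242 and 253 CPM with FGF-2 and 171, 159 and 171 CPM in serum alone, at 0.54 ± 0.10 on the log2 scale (edgeR adjusted p = 0.00173). Zfp346, which binds double-stranded RNA, went the other way, with 44.1, 43.5 and 36.2 CPM with FGF-2 and 57.0, 60.4 and 56.6 CPM in serum alone. Its log2 fold change was -0.49 ± 0.11 (edgeR adjusted p = 0.00628). Zfp326, a splicing factor in human cells, had 50.9, 52.5 and 60.5 CPM with FGF-2 and 48.7, 38.7 and 44.0 CPM in serum alone, and its 0.31 ± 0.12 did not pass (edgeR adjusted p = 0.0612). Zfp706 did not pass either, at 0.20 ± 0.11 (edgeR adjusted p = 0.149). Levels are not compared between genes, because no gene lengths were used.

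Promoter-bound and developmental regulators split both ways. Of 25 listed genes 19 were members, of which 4 rose, 6 fell and 9 did not pass, with a median log2 fold change of -0.14. The called share was 52.6%, against 46.3% of all tested genes. Library totals alone gave 1 higher and 11 lower. The risers were Zfp703, Zfp143, Zfp131 and Zfp592. Zfp143, an activator of many promoters including those of small nuclear RNA genes, had 22.3, 18.9 and 20.8 CPM with FGF-2 and 15.9, 12.5 and 12.4 CPM in serum alone, at 0.60 ± 0.15 (edgeR adjusted p = 0.00951). Zfp143 did not pass with library totals alone (0.25, adjusted p = 0.213). Zfp131 had 94.3, 89.2 and 111 CPM with FGF-2 and 63.8, 63.0 and 84.6 CPM in serum alone, at 0.48 ± 0.14 (edgeR adjusted p = 0.0198), and lost its call without FGF-2 library 3 or without serum library 1 or 2.

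The 6 that fell were Zfp503, Zfp395, Zfp516, Zfp462, Zfp532 and Zfp704. Zfp516, known as an activator of the brown fat gene Ucp1, had 47.5, 39.8 and 37.7 CPM with FGF-2 and 59.6, 69.7 and 59.6 CPM in serum alone. No values overlapped, at -0.59 ± 0.13 on the log2 scale (edgeR adjusted p = 0.00392). Zfp462, which acts on heterochromatin in embryonic stem cells, had 45.3, 37.9 and 41.5 CPM with FGF-2 and 53.5, 54.6 and 61.6 CPM in serum alone, at -0.44 ± 0.12 (edgeR adjusted p = 0.0109). Zfp532 and Zfp592 are relatives whose human counterparts were found together with the chromatin reader ZMYND8. Zfp532 had 37.0, 34.0 and 29.3 CPM with FGF-2 and 44.8, 44.7 and 47.1 CPM in serum alone, at -0.44 ± 0.11 (edgeR adjusted p = 0.0113). Zfp592 had 79.9, 80.5 and 76.2 CPM with FGF-2 and 57.6, 58.9 and 70.4 CPM in serum alone, at 0.35 ± 0.11 (edgeR adjusted p = 0.029). The pair thus moved in opposite directions on the TMM scale, but the call of Zfp592 was lost without FGF-2 library 1 or 2 or serum library 1 or 2, and library totals alone put it at 0.01. Zfp410, an activator of Chd4, and Zfp281, a pluripotency factor, had log2 fold changes of 0.31 ± 0.13 and 0.26 ± 0.11 and did not pass (edgeR adjusted p = 0.0679 and 0.0695).

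Of 4 listed KRAB zinc finger genes with studied targets, 0 rose and 1 fell (edgeR), or 25.0%, against 46.3% of all tested genes. Of the 4, 1 was higher at an unadjusted p under 0.05, and 0 were higher with DESeq2 or limma-voom. Zfp809, which silences retroviruses through a primer binding site, had 26.5, 27.1 and 30.8 CPM with FGF-2 and 34.2, 37.8 and 40.8 CPM in serum alone. It fell by 0.42 on the log2 scale with an SE of 0.12 (edgeR adjusted p = 0.0154), and the call was lost without FGF-2 library 1 or 2. Zfp445, a regulator of imprinting, had 144, 148 and 132 CPM with FGF-2 and 109, 115 and 128 CPM in serum alone. Its groups did not overlap, yet its 0.27 ± 0.11 did not pass (edgeR adjusted p = 0.0564). Zfp932, which acts on endogenous retroviruses, had 6.92, 4.85 and 7.42 CPM with FGF-2 and 6.12, 7.34 and 5.48 CPM in serum alone, and its groups lay over each other (-0.011 ± 0.23, edgeR adjusted p = 0.972). Zfp568, known for repression of a placental Igf2 transcript, had a log2 fold change of 0.0014 (edgeR adjusted p = 0.993).

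The uncalled members with the smallest errors had narrow intervals. Zfp276 had a log2 fold change of 0.16 ± 0.10, with a 95% interval of -0.029 to 0.36 (edgeR adjusted p = 0.196). Zfp263 had 40.9, 42.3 and 40.9 CPM with FGF-2 and 40.9, 36.6 and 39.3 CPM in serum alone, with an interval of -0.11 to 0.29. Zfp318, needed for IgD splicing in B cells, had 44.3, 44.7 and 48.3 CPM with FGF-2 and 45.6, 48.4 and 51.8 CPM in serum alone, with an interval of -0.29 to 0.12. With library totals alone Zfp263 was at -0.25 (adjusted p = 0.0789) and Zfp318 at -0.43 (adjusted p = 0.0066).

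The pathway through which KRAB proteins silence chromatin was followed in a list of 20 genes, of which 15 were tested, 1 rose and 5 fell, with a median log2 fold change of -0.20. That is 40.0% called, against 46.3% of all tested genes, whose median was -0.023. Library totals alone gave 0 higher and 10 lower. Uhrf1 and Dnmt1, which maintain DNA methylation, both fell. Uhrf1 had 46.0, 55.2 and 49.8 CPM with FGF-2 and 156, 150 and 100 CPM in serum alone, at -1.43 ± 0.17 on the log2 scale (edgeR adjusted p = 0.000177). Dnmt3a, a de novo DNA methyltransferase, had 70.1, 86.2 and 60.1 CPM with FGF-2 and 189, 151 and 149 CPM in serum alone, at -1.17 ± 0.15 (edgeR adjusted p = 0.000247). Dnmt1 was at -0.82 ± 0.13, Atf7ip, a partner of Setdb1, at -0.56 ± 0.16, and Setdb1 itself at -0.50 ± 0.13 (edgeR adjusted p = 0.000867, 0.0191 and 0.00902). Without serum library 2 only 3 of the list were called lower. Trim28 had 447, 490 and 417 CPM with FGF-2 and 568, 510 and 482 CPM in serum alone, and did not pass (-0.20 ± 0.12, edgeR adjusted p = 0.189), although with library totals alone it was at -0.55 (adjusted p = 0.0053). Mphosph8, a subunit of the HUSH silencing complex, was the 1 gene called higher (24.1, 27.3 and 34.0 CPM with FGF-2, 19.4, 19.1 and 24.1 CPM in serum alone, 0.45 ± 0.16, edgeR adjusted p = 0.042). That call was lost with upper-quartile factors, with library totals alone, and without FGF-2 library 2 or 3 or serum library 1 or 2. Morc2a, which works with that complex, did not pass (0.24 ± 0.11, edgeR adjusted p = 0.0992).

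Some genes used by every cell had almost no counts. Chd4 and Smarcad1 were listed at 0 in all 6 libraries, and Cbx3 had 0 to 4 and Cbx5 2 to 7 counts per library. H3K27ac regions nevertheless lay within 1 kb of the starts of Smarcad1, with signals of 399 and 467 in the FGF-2 libraries and 533 and 413 in the serum libraries, and of Cbx3 and Cbx5. Zfp148, Zfp598 and Zfp687, which were on the lists but under the CPM minimum, had at most 8, 1 and 7 counts in any library, and each had such a region. Of the 130 Zfp genes under the minimum, 56 had at most 10 counts over all 6 libraries, and 21 of these 56 (37.5%) had a region within 1 kb, against 1222 of 12326 genes of all kinds at such counts (9.91%). A low count in these files therefore does not show that a gene was silent, and the part of read assignment in it was not tested.

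Other zinc finger families at the same CPM minimum gave a frame for these counts. Of 24 genes named Zfp with 1 or 2 digits, 3 rose and 4 fell. Of 11 named with 3 digits and a letter, 2 rose and 0 fell (edgeR), with 0 lower at an unadjusted p under 0.05 and 0 with DESeq2 or limma-voom. Of 12 Zscan and Zkscan genes, which carry a SCAN domain, 3 rose and 0 fell (edgeR), with 1 lower at an unadjusted p under 0.05 and 0 with DESeq2 or limma-voom. Of 28 Zbtb genes, which carry a BTB domain, 11 rose and 3 fell, with a median log2 fold change of 0.23. The called shares were 29.2%, 18.2%, 25.0% and 50.0% in that order, against 48.8% of all tested genes at this minimum. With library totals alone the lettered Zfp genes had 0 higher and 3 lower, the Zscan and Zkscan genes 0 higher and 4 lower, and the Zbtb genes 4 higher and 6 lower. Differences between families were not tested.

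Position in the genome was set beside the calls for 14 clusters of at least 5 zinc finger genes with gaps of at most 200 kb. Clusters were built only from protein-coding genes whose symbol starts with Zfp, Zscan or Zkscan and a digit. A member among zinc finger genes of other names can therefore count as outside clusters. Of 48 members in clusters 7 rose and 7 fell, or 29.2%. Of 109 members outside clusters 24 rose and 16 fell, or 36.7%. Both shares were under the 48.8% of all tested genes at the same CPM minimum, and their difference was not tested. The median size of the log2 change was 0.25 inside clusters and 0.29 outside. Chromosome 7 held 42 members, with 9 higher and 6 lower, or 35.7%. Its cluster at chr7:127233061-127615785 held 6 members (Zfp553, Zfp629, Zfp747, Zfp764, Zfp768 and Zfp771), with log2 fold changes of -0.22 to 0.26. Of these 0 were called by edgeR, 0 had an unadjusted p under 0.05, and 0 were called by DESeq2 or limma-voom, while library totals alone called 2 lower. Neighbours also differed: the cluster at chr7:12768090-12985717 held Zfp324, at -1.10, and Zfp110, which binds the p75 neurotrophin receptor, at 0.57 (edgeR adjusted p = 0.00154). The cluster at chr7:6131489-6396637 held Zfp667, at 1.08, and Zfp444, at -0.61, but Zfp667 passed the rule through its FGF-2 level. Clustered genes resemble each other in sequence, and how reads shared between copies were counted was not stated in the labels, which leaves values of close copies uncertain.

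**Figure D4:**
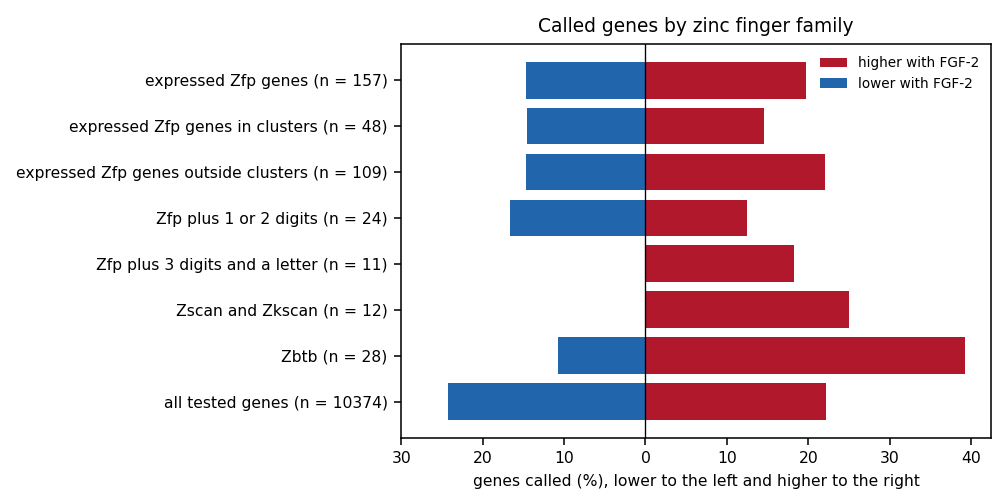
Percentage of genes called lower (left, blue) and higher (right, red) with FGF-2 for the expressed Zfp genes, the same genes inside and outside clusters, 4 other families at the same CPM minimum and all tested genes. Zfp genes were called in 34.4% and all tested genes in 46.3%; under library totals alone the Zfp split was 9 higher and 62 lower, and the Zbtb split 4 higher and 6 lower.

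Calls varied with level. Of 43 members at 5 to 10 CPM, 27.9% were called, against 43.0% of all tested genes in that range. The shares were 33.3% of 42 members and 48.1% of all genes at 10 to 20 CPM, and 28.3% of 46 members and 49.9% of all genes at 20 to 50 CPM. At 50 CPM and above, 57.7% of 26 members were called, against 49.8% of all genes. Just inside the minimum lay Zfp189 (mean raw level 5.03 CPM), Zfp229 (5.05 CPM) and Zfp764 (5.09 CPM), and just outside Zfp738 (4.94 CPM), Zfp952 (4.90 CPM) and Zfp691 (4.80 CPM). In 14 members the raw mean of 1 group was under 5 CPM, and 6 of these were among the called genes. Zfp189, Zfp619 and Zfp667 passed the rule through their FGF-2 level and Zfp101, Zfp229 and Zfp395 through their serum level, so their differences are tied to the rule.

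H3K27ac was a readout that the choice of genes did not use. The authors' deposited table placed 169 regions within 1 kb of the start of 144 members, or 91.7% of members, against 78 of the 130 Zfp genes under the CPM minimum (60.0%). These sets were split by RNA level, so their difference cannot be told apart from one of RNA level. The share of all tested genes with such a region was not counted. By the false discovery rate of that table, 5 of the 169 regions (2.96%) had changed, 2 higher and 3 lower. The share was 2.70% over all 12484 regions within 1 kb of a start and 9.98% over all 40772 regions, so that at Zfp starts was near that of all starts. The median deposited log2 fold was 0.02 at members and 0.04 at all starts. Reads recovered from the signals and tested with edgeR gave 4 regions higher and 12 lower, a choice made after seeing the data. That is 9.47% of member start regions, against 9.00% of all start regions (3.04% higher and 5.96% lower).

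The 3 start regions that fell in the authors' deposited table belonged to Zfp579, Zfp958 and Zfp113. At Zfp579 (chr7:4995423-4997198, over the promoter printed above) the signal was 75.1 and 84.0 in the FGF-2 libraries and 185 and 135 in the serum libraries, a deposited log2 fold of -1.01 (false discovery rate 0.00729). At Zfp958 (chr8:4611272-4612281) it was 44.7 and 24.0 with FGF-2 and 124 and 66.9 in serum alone, a deposited log2 fold of -1.48 (false discovery rate 0.00749). That region lies 889 bases before the start. The region over the Zfp958 start itself (chr8:4612448-4615132), which covers the printed window, had 252 and 244 with FGF-2 and 415 and 297 in serum alone and did not pass in the authors' deposited table (log2 fold -0.52, false discovery rate 0.132). By edgeR on recovered reads that region was called lower (-0.64, adjusted p = 0.00344). RNA of both genes fell as well. At Zfp113 (chr5:138155001-138155786) the signal was 14.3 and 15.0 with FGF-2 and 50.6 and 46.8 in serum alone, a deposited log2 fold of -1.74 (false discovery rate 0.00975). Zfp113 RNA did not pass, at -0.49 ± 0.18 (edgeR adjusted p = 0.0509), though its groups did not overlap. The 2 start regions that rose in the authors' deposited table belonged to Zfp239, with signals of 173 and 153 with FGF-2 and 106 and 81.9 in serum alone (deposited log2 fold 0.8, false discovery rate 0.0331), and Zfp526, with 421 and 420 with FGF-2 and 296 and 257 in serum alone (deposited log2 fold 0.61, false discovery rate 0.0261). RNA of neither passed, at -0.28 ± 0.20 for Zfp239 and 0.20 ± 0.19 for Zfp526 (edgeR adjusted p = 0.266 and 0.422).

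At Zfp703 the start region had 347 and 408 with FGF-2 and 311 and 220 in serum alone, and did not pass in the authors' deposited table (log2 fold 0.51, false discovery rate 0.148). At Zfp503 it had 228 and 250 with FGF-2 and 317 and 257 in serum alone (authors' deposited table, log2 fold -0.26, false discovery rate 0.583). At Zfp651 it had 332 and 423 with FGF-2 and 457 and 332 in serum alone, values that overlapped (authors' deposited table, log2 fold -0.06, false discovery rate 0.943). Zfp954 had the largest positive deposited fold of the RNA risers, with 113 and 104 with FGF-2 and 69.1 and 51.8 in serum alone (authors' deposited table, log2 fold 0.85, false discovery rate 0.0631). With edgeR on recovered reads, the start region of Zfp503 was called lower (-0.39, adjusted p = 0.0445) and that of Zfp954 higher (0.72, adjusted p = 0.0277). Those of Zfp703 (0.39, adjusted p = 0.0524) and Zfp651 (-0.18, adjusted p = 0.376) did not pass by edgeR either. Across the 144 members, with the strongest region of each taken, 20 of 28 genes with higher RNA had a deposited fold above 0 and 16 of 22 genes with lower RNA had one below 0. The median deposited log2 fold was 0.12 for genes with higher RNA, -0.21 for genes with lower RNA and 0.025 for the 94 genes not called. Such counts and medians by RNA call were not taken over all tested genes, so they are not a result about Zfp genes. Pearson's r between both log2 values was 0.446 across the 144 genes (Spearman's rho 0.387), and 0.434 without the pair of largest RNA changes. Over 8197 genes r was 0.435 and rho 0.361. These are descriptions across genes, which share libraries and are not independent replicates.

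**Figure D5:**
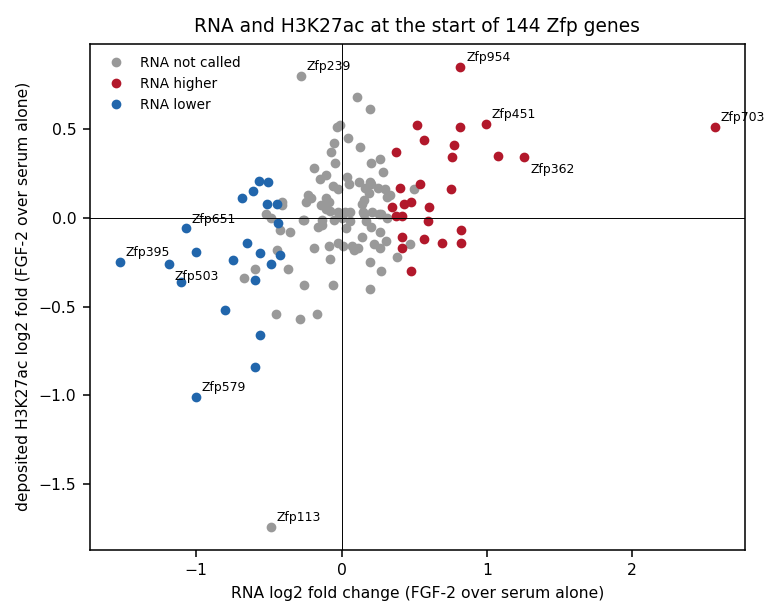
Deposited log2 fold of H3K27ac in the strongest region within 1 kb of the start (y axis) against RNA log2 fold change (x axis), both FGF-2 over serum alone, for 144 Zfp genes coloured by RNA call. Pearson's r was 0.446; Zfp703 lies far right at 2.57 with a deposited fold of 0.51. Its RNA value was 2.23 with library totals alone, where the median over all tested genes was -0.36.

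At any distance, the start regions above included, the authors' deposited table tied 393 regions to 148 members. Of these regions 11 were higher and 6 lower, or 4.33%. Over all regions 9.98% were called, 8.33% higher and 1.64% lower. An intronic region of Zfp362 (chr4:128793183-128793850) had signals of 59.9 and 79.0 with FGF-2 and 25.8 and 10.0 in serum alone (authors' deposited table, log2 fold 1.96, false discovery rate 0.00123), and its RNA rose too. An intronic region of Zfp827 (chr8:79033874-79034493) had 34.2 and 19.0 with FGF-2 and 1.84 and 2.51 in serum alone (authors' deposited table, log2 fold 3.61, false discovery rate 0.00216). RNA of Zfp827, which in human cells recruits a chromatin remodeller to telomeres, fell by 0.57 on the log2 scale with an SE of 0.14 (edgeR adjusted p = 0.00939). A region within 3 kb before the start of Zfp568 had 39.0 and 37.0 with FGF-2 and 133 and 134 in serum alone (authors' deposited table, log2 fold -1.81, false discovery rate 1.73e-06), while its RNA had a log2 fold change of 0.0014 (edgeR adjusted p = 0.993). Scaled to library totals alone that RNA was called lower (-0.33, adjusted p = 0.0392). The choice of these 3 was made with their values known. The table ties a region to the nearest gene, and which gene a distant region acts on was not measured.

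Peaks called by the authors in each library covered the 300-base promoter window of 116 and 119 of 128 members in the FGF-2 libraries and of 120 and 116 in the serum libraries (at least 1 base). That is 90.6% to 93.8% of members, against 80.7% to 83.9% of 7984 tested genes. Windows of 112 members were covered in all 4 libraries and those of 6 in none. No member was covered in both libraries of one group and neither of the other.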

How the data were processed

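The RNA files hold HTSeq counts of reads by gene symbol, not normalised, as the authors deposited them. The submitters' processing notes name STAR 2.5.2a, SAMtools 1.1, HTSeq 0.10.0, bedtools 2.15.0, MACS2 2.2.6, DiffBind and ChIPseeker, and build mm10. Neither the annotation nor the strand setting is stated in the labels, and overlapping or antisense genes are uncertain. Reads outside genes or in several genes were 37% to 43.2% of listed reads and were left out. At 0 counts, a level of up to 0.236 to 0.533 CPM was possible (3 counts in a library's total, counting error only).

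The authors' deposited region table gives a log2 fold, a false discovery rate (an adjusted p-value) and a signal per library. Its test could not be rebuilt from the labels. MACS2 peaks were called per library against its own input, and give fold enrichment (a ratio) and −log10 q, per the file headers. Inputs and the authors' table of RNA results were not used here.

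The members, gene lists and tests were chosen with earlier results of these data known. RNA was tested with edgeR 4.0.16 in R 4.3.3 (robust quasi-likelihood fit, TMM factors, filterByExpr) on all 6 libraries, with Benjamini-Hochberg adjustment at 0.05. SEs were derived as the size of the log2 value divided by the root of the F statistic, and intervals span 1.96 SE each way. That multiple is a normal quantile, so with 6 libraries the intervals are narrower than 95% intervals of the test. For Zfp335 the interval was 0.015 to 0.43, yet its unadjusted edgeR p was 0.0624. TMM factors were 0.9109, 0.8933 and 0.8636 for the FGF-2 libraries and 1.151, 1.153 and 1.073 for the serum libraries. Alternatives were DESeq2 1.42.0, limma-voom (limma 3.58.1), other scalings, no filter, a replicate block and left-out libraries. edgeR was also run on whole H3K27ac reads recovered from the signals (100% of values whole within 0.05 reads). Tests were checked on simulated data. Replicate libraries differed by more than sampling noise (chi-square per degree of freedom 9.58 to 25.6), so each counted as a library.

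Positions and promoters came from RefSeq tables of GRCm38.p6, in which all 157 members matched (Zfp607 by its synonym). Genes were named by a rule that took the 12 largest called changes each way, up to 4 called and 2 uncalled members per list, 4 uncalled members of smallest SE, members with a called start region, 3 genes on each side of the CPM minimum and 2 corepressor genes each way. Others named to complete a list, cluster or region were chosen after their values were seen. Python 3.11.15 with pandas 2.3.3 and matplotlib 3.10.9 was used for joins and figures.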

Additional observations from a re-analysis of the deposited data

How the results depend on the processing

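With upper-quartile factors 20 members were higher and 34 lower, and the member median was -0.091. Library totals alone gave 9 members higher and 62 lower, with a median of -0.29, and all tested genes gave 1035 higher and 4675 lower. At a threshold of 0.01 17 members were higher and 14 lower, and 1441 of all tested genes were higher and 1618 lower. The corepressor list gave 0 higher and 8 lower with upper-quartile factors, 0 and 10 with library totals alone, and 0 higher at 0.01. Members in clusters gave 1 higher and 20 lower with library totals alone, and 3 higher and 4 lower at 0.01. Members outside clusters gave 15 higher with upper-quartile factors, 8 higher and 42 lower with library totals alone, and 14 and 10 at 0.01. With the member minimum at 1 CPM the median was -0.037, against -0.023 over all tested genes.

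Leaving out 1 RNA library gave 20 to 33 members higher (20 without serum library 1) and 17 to 24 lower. In clusters it gave 4 to 7 higher (4 without serum library 1) and 4 to 7 lower (4 without FGF-2 library 1). For the corepressor list it gave 0 to 1 higher and 3 to 6 lower (3 without serum library 2). DESeq2 called 43 members, all among the 54.

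Among genes named here, directions turned with library totals alone for Morc2a (-0.10), Zfp263 (-0.25), Zfp276 (-0.18), Zfp281 (-0.08), Zfp326 (-0.028), Zfp410 (-0.033), Zfp445 (-0.064), Zfp526 (-0.15), Zfp568 (-0.33), Zfp706 (-0.14), Zfp738 (-0.047), Zfp747 (-0.29), Zfp768 (-0.33) and Zfp771 (-0.081), and with upper-quartile factors for Zfp263 (-0.052), Zfp568 (-0.14), Zfp747 (-0.091) and Zfp768 (-0.13). With 1 library left out Zfp568 ran from -0.065 (without serum library 2) to 0.076, Zfp747 from -0.0025 (without FGF-2 library 2) to 0.12, Zfp768 from -0.062 (without FGF-2 library 2) to 0.083, Zfp764 from -0.22 to 0.025 (0.025 without FGF-2 library 3) and Zfp932 from -0.11 to 0.17 (0.17 without FGF-2 library 2, 0.11 without serum library 2). Zfp932 turned to 0.016 with DESeq2, 0.0078 with DESeq2's size factors in edgeR and 0.0012 with no filter. None of these genes was called on the TMM scale, and Zfp568 was called lower with library totals alone (adjusted p = 0.0392). The scalings differ in the assumed total; apart from that, the cause was not tested.

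At starts, H3K27ac gave 0 regions higher at a false discovery rate of 0.01. edgeR on recovered reads gave 4 higher and 12 lower, and 2 to 3 higher and 8 to 9 lower with 1 library left out (2 without FGF-2 library 1 or 2 or serum library 1). From signals, the median log2 fold with 1 library left out ran from -0.17 to 0.23 (0.23 without serum library 1). Peaks covering 0.5 of the window were found for 71 and 77 members in the FGF-2 libraries and 79 and 75 in the serum libraries.

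Replicate numbers did not pair libraries 1 and 2: deviations of same-numbered libraries correlated at -0.103 and 0.0656, and across numbers at 0.377 and 0.32. The third libraries of both groups correlated at 0.381, the highest value of any pair. On the second principal component they lay together, at -20.1 with FGF-2 and -20.8 in serum alone, against 5.54 to 15.6 for the others. A source shared by the third libraries was not tested. A replicate block called 53 members, of which 51 were shared with the 54. A split by KRAB box was not run, as the protein sequences were not used here. At 0 counts, depth allowed a level of up to 0.236 to 0.533 CPM.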
